A study of Macaca mulatta with 28 samples.

Results

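The subunits of the proteasome and of the cytosolic chaperonin CCT were followed in the bulk transcriptome of the ventral tegmental area (VTA), compared between rhesus macaques with long-term access to alcohol and control macaques. The members were all entries of the count table named as a 20S core subunit (PSMA or PSMB), a regulatory subunit (PSMC or PSMD) or an activator (PSME) followed by a number, together with CCT2 to CCT8 and TCP1, the first CCT subunit. This rule found 50 of the 16885 entries with a gene symbol, 42 of the proteasome and 8 of CCT. With a minimum of 5 counts in 3 or more animals, 49 members (41 and 8) were among the 13769 entries tested. The exception was PSMB11, a core subunit of the thymus, which was at 0 in 24 animals. Each entry was 1 Ensembl transcript with 1 gene symbol, so counts assigned to other transcripts of the same gene were not part of a member's value. PSMC6 was not analysed here.

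The 28 animals were adult males, 17 drinkers and 11 controls, with 1 library from 1 VTA punch per animal. After an induction phase the drinkers had open access to ethanol for 22 h per day over 12 months, then went through 3 forced abstinence periods of about a month with renewed access between them, and the tissue was taken at the end of the last one. Controls were calorically yoked or housing animals, and which control was of which kind is not given in the sources used here. Cohort 1 held 8 drinkers (4 heavy, 3 very heavy and 1 low) and 8 controls, and cohort 2 held 9 drinkers (6 very heavy, 2 binge and 1 heavy) and 3 controls. All drinkers and controls were wild type, and every drinker had gone through abstinence, so drinking and abstinence cannot be told apart. The cohort was read from the animal numbers. Whether the cohorts were sequenced together is not given in the sources used here.

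The proteasome breaks down proteins tagged with ubiquitin. Its 20S core is a barrel of outer alpha rings, which gate the entrance, and inner beta rings, which carry the proteolytic sites. The 19S regulator sits on the barrel, with a base whose PSMC subunits form an ATPase ring that unfolds substrates and a lid that removes ubiquitin chains. Interferon can replace the catalytic beta subunits by inducible ones, giving the immunoproteasome. CCT, also called TRiC, is a double ring of 8 related subunits that folds newly made actin, tubulin and other proteins in an ATP-driven cycle. Neurons depend on both machines for protein turnover at synapses and for the tubulin of their axons.

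The libraries held 12303914 to 27338669 counts each, and 13 mitochondrial transcripts took 36.4% to 60.6% of them. The members together held 0.224% to 0.440% of a library's counts. Dopamine neuron markers were present in every library but uneven, with tyrosine hydroxylase (TH) between 5.58 and 826 CPM (counts scaled by library size). In cohort 1 the expression of transcripts shifted with their GC content: the slope of log2 CPM per 10 percentage points of GC was −0.012 to 0.186 in the controls and −0.117 to 0.014 in the drinkers. In cohort 2 it was −0.041 to 0.015 in the controls and −0.044 to 0.079 in the drinkers. Of 13 neuron markers listed, 11 were tested. In cohort 1, 10 of them had a higher estimate in drinkers, 4 at an unadjusted p under 0.05 (6.55% of all transcripts). Their median log2 fold change was 0.52. None passed the adjusted test, and their summed CPM was 4485 to 13824 in controls and 5864 to 28717 in drinkers. In cohort 2, 9 of 11 had a lower estimate in drinkers, 1 at such a p (0.995% of all transcripts), with a median of −0.33. The sums there were 5954 to 13167 in controls and 4778 to 7320 in drinkers. SYT1 was at 0 in 24 animals, ENO2 in 11, ELAVL4 in 8 and STMN2 in 1. In bulk tissue, fewer cells of a type and less RNA per cell cannot be told apart.

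Proteasome genes are known to be switched on together by the transcription factor NRF1 (gene NFE2L1) through antioxidant-response-type elements near their start sites. The 250 bases upstream of each RefSeq transcript start (Mmul_10) were therefore searched for TGACNNNGC on both strands. Of the 49 members, 14 held a match, which is 28.6%, against 1495 of 13265 tested transcripts with such a window, 11.3%. CCAAT was found in 34.7% of the members and 30.0% of all windows, CCGGAAG in 20.4% and 9.56%, and GGGCGG in 53.1% and 52.8%. The 5 stretches below are a selection from these 14 members, before subunits whose levels are described below or, for PSMD3, before a lid scaffold. Matches before PSMB3, PSMB4, PSMB6, PSMC3, PSMD2, PSMD7, PSMD9, PSME1 and PSME2 are not shown, although values of several of these are also given below. They were read from RefSeq Mmul_10 on the gene's own strand, and the capitals mark the match on either strand. CCT6A lies at chr3:59070781-59070810 on the plus strand, 30 to 1 bases before the start, and the part of it farthest from the start also falls in the first exon of PSPH, which is read from the other strand. CCT4 lies at chr13:46879314-46879343 on the plus strand, 97 to 68 bases before the start. PSMA7 lies at chr10:97286270-97286299 on the minus strand, 250 to 221 bases before it. PSMD12 lies at chr16:63744550-63744579 on the minus strand, 154 to 125 bases before the start of the matched RefSeq transcript, which lies inside the outermost end of the gene given below. PSMD3 lies at chr16:51112718-51112747 on the plus strand, 141 to 112 bases before it. PSMA7 held a further match 18 to 10 bases and PSMD3 one 61 to 53 bases before the start, outside the stretches shown.
CCT6A: ctcctcccgtgcgcaaTGACGCCGCggccg
CCT4: tttaaatcgcGCGTTGTCAttgctgcctcg
PSMA7: cGCCGCGTCAtgggctcgtccgcctcgtcg
PSMD12: agacaaaaccTGACGCTGCgggatggagcg
PSMD3: tcccctttgtTGACTCGGCcatcggcctgc
PSMA3, PSMA6, PSMC1, PSMC2, PSMD1, PSMD5, CCT2 and CCT5, also described below, held no match in this window.

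In cohort 1 most members had slightly higher estimates in the drinkers, and in cohort 2 most had slightly lower ones. By edgeR only 1 member passed the adjusted test. That member was CCT6A, the zeta subunit of the chaperonin, which rose in the drinkers of cohort 1. Of the 49 members, 37 (75.5%) were higher in the drinkers of cohort 1, against 48.9% of all transcripts tested, with a median log2 fold change of 0.11 against −0.007 for all transcripts. In cohort 2, 38 members (77.6%) were lower in drinkers, against 48% of all, with a median of −0.08 against 0.0096. That majority depended on 1 of the 3 controls of cohort 2. Without control 2 (controls are numbered in the order in which their values are given), 22 of 49 members in place of 10 were higher in the drinkers of cohort 2, and the median was −0.02. These are small differences, and the members share libraries, so the members are not replicates of one another.

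The test was edgeR's quasi-likelihood test with Benjamini-Hochberg adjustment over all 13769 transcripts, with the 4 groups (drinkers and controls of each cohort) fitted together. In cohort 1, 132 transcripts passed an adjusted p of 0.05, which is 0.959% of those tested, and 1 of 49 members (2.04%) did. The 132 became 38 to 169 with 1 animal left out, 5 with each cohort fitted alone, 9 with the GC correction and 16 with the neuron covariate. At an unadjusted p under 0.05, 2023 transcripts (14.7%) and 11 members (22.4%) were counted, and all 11 members were higher in drinkers, a direction with such a p for 6.55% of transcripts. In cohort 2 the counts by edgeR were 0 of 13769 (0%) and 0 of 49 at the adjusted threshold, and at an unadjusted p under 0.05 they were 276 (2%) and 2 (4.08%), both lower in drinkers, as were 0.995% of all transcripts. DESeq2 called 429 of 13694 transcripts (3.13%) and 6 members in cohort 1. In cohort 2 it called 54 transcripts and limma-voom 3, none of them a member. On simulated counts without any change in cohort 2, DESeq2 made 46 calls there, and edgeR and limma-voom made none. In cohort 1 of these counts 200 transcripts were changed. Unchanged transcripts called there numbered 37 by DESeq2, 12 by edgeR and 4 by limma-voom. Of 100 changes of 2-fold, edgeR recovered 67 and DESeq2 75. Without the transcripts listed at 0 in any animal, 33 of 40 members (82.5%) were higher in cohort 1, against 48.8% of 8329 transcripts, and 32 of 40 (80%) were lower in cohort 2, against 49.4%.

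**Figure D1:**
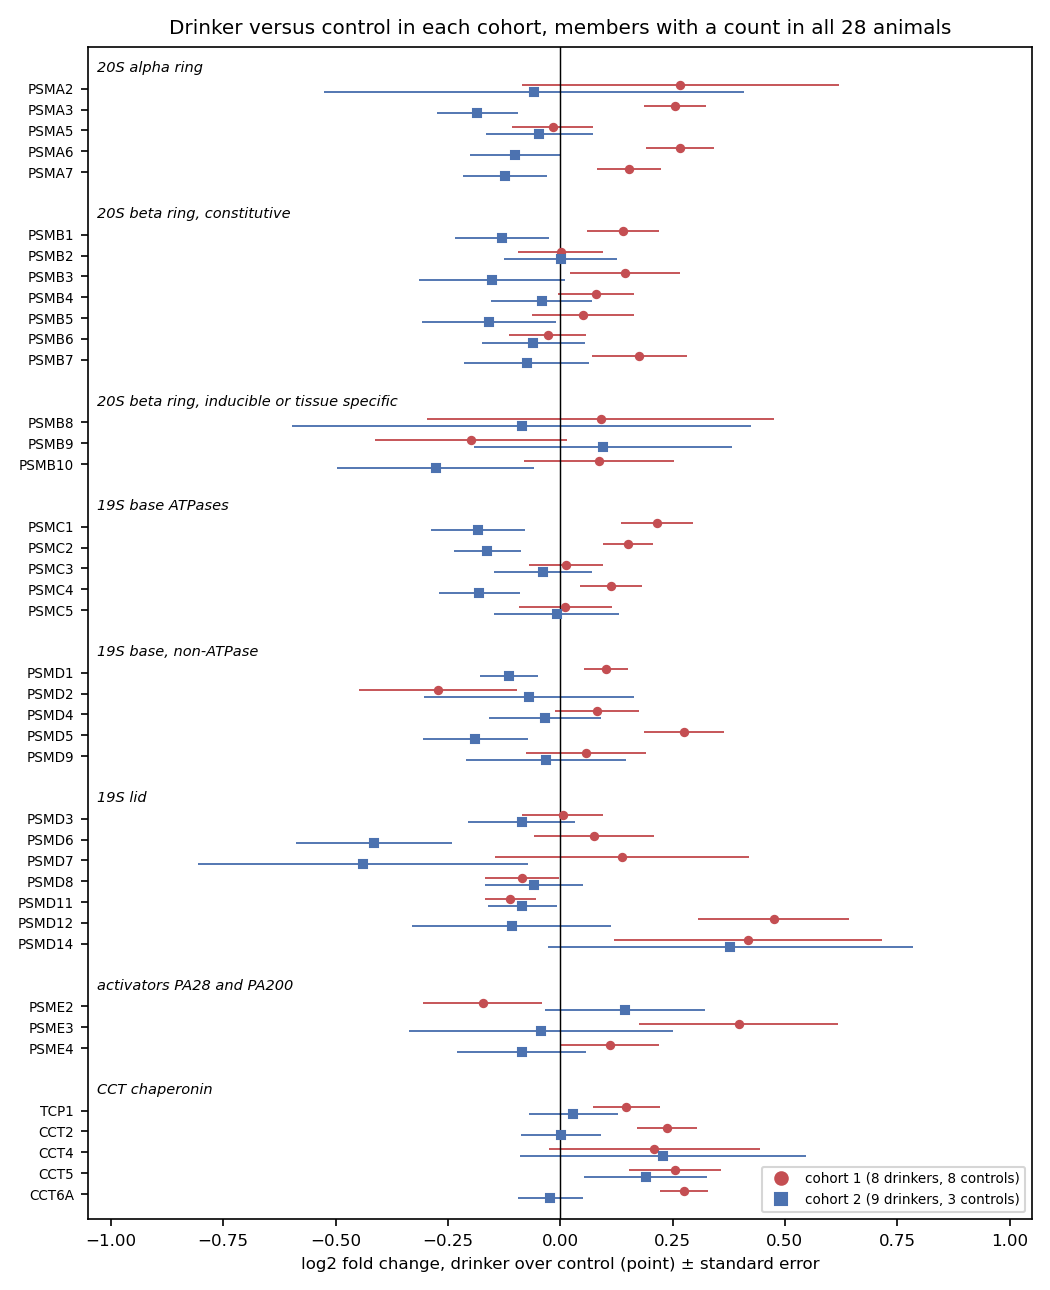
Log2 fold change of drinkers over controls for each member never listed at 0, with points for the estimate and bars for its standard error, in cohort 1 (8 drinkers, 8 controls) and cohort 2 (9 drinkers, 3 controls), grouped by role in the complex. Most cohort 1 points lie right of 0 and most cohort 2 points left of it, and CCT6A in cohort 1 is the only one past the adjusted threshold.

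The chaperonin held the member with the clearest difference. CCT6A (chromosome 3, 59070811 to 59083142, plus strand, RefSeq Mmul_10) ranged from 170.1 to 191 CPM with a median of 178 in the 8 cohort 1 controls and from 195 to 242 with a median of 215 in the 8 drinkers. The 2 groups did not overlap, which was the case for 25 of the 13769 transcripts (0.182%) and for no other member. Cohort 2 controls had 195, 189 and 172 CPM, and the 9 drinkers ranged from 163 to 208 with a median of 181, so those groups overlapped, as did the groups of every other member in cohort 2, where 0.625% of transcripts had no overlap. The mean of the cohort 1 drinkers (217 ± 14.4 CPM, SD, n = 8) stood apart from the other groups, whose means were 179 ± 6.69 (n = 8), 185 ± 12.1 (n = 3) and 182 ± 16.1 (n = 9) for cohort 1 controls, cohort 2 controls and cohort 2 drinkers. The log2 fold change was 0.28 (SE 0.054, edgeR adjusted p = 0.0150) in cohort 1 and −0.02 (SE 0.072, adjusted p = 1) in cohort 2. The call for CCT6A held in all 28 fits that left out 1 animal (adjusted p 0.0127 to 0.0423). It was not made with a correction for GC content (log2 0.18, adjusted p = 0.210), with the neuron marker score as a covariate (0.26, adjusted p = 0.0668) or with cohort 1 fitted alone (0.28, adjusted p = 0.0971). CCT6A has processed pseudogenes in primates, and how counts were shared with such copies is not given in the sources used here.

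CCT2, the beta subunit (chromosome 11, 69122667 to 69138523, plus strand), ranged from 103 to 132 CPM (median 124) in cohort 1 controls and from 117 to 164 (median 143) in the drinkers, and 6 of 8 drinkers lay above the highest control. Its log2 fold change was 0.24 (SE 0.066, adjusted p = 0.0804), short of the threshold. In cohort 2 the controls had 124, 134 and 119 CPM and the drinkers 113 to 144 (median 123), and the log2 fold change was 0.00 (SE 0.088). CCT5, the epsilon subunit (chromosome 6, 10219310 to 10236180, plus strand), had estimates above 0 in both cohorts. It ranged from 72.9 to 97.2 CPM (median 82.1) in cohort 1 controls and from 80.4 to 123 (median 97.9) in the drinkers, with 0.26 on the log2 scale (SE 0.10, adjusted p = 0.203). In cohort 2 the controls had 69.3, 75.8 and 67.6 CPM and the drinkers 59.7 to 104 (median 82.4), 7 of 9 of them above the control median, with 0.19 (SE 0.14, adjusted p = 1). Neither gene passed the adjusted test by edgeR in either cohort, while DESeq2 called CCT2 in cohort 1 (adjusted p = 0.00833).

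TCP1, the alpha subunit, had medians of 65.7 and 76.0 CPM in the controls and drinkers of cohort 1 (log2 0.15, SE 0.074, adjusted p = 0.367) and of 65.1 and 66.1 in cohort 2 (0.03, SE 0.099). CCT4, the delta subunit, varied widely among the drinkers of cohort 1, from 14.1 to 64.3 CPM, and its log2 fold changes were 0.21 (SE 0.24) and 0.23 (SE 0.32). The estimates for CCT3, CCT7 and CCT8 rest on entries listed at 0 in some animals and are given further below as counts of animals. Of the 8 chaperonin subunits, 7 had a higher estimate in cohort 1, 3 at an unadjusted p under 0.05 and 1 at the adjusted threshold (48.9%, 6.55% and 0.378% of all transcripts were higher in these ways), and 4 were higher and 3 lower in cohort 2. Summed over the 8 subunits, the level was 498 ± 18.4 CPM in cohort 1 controls, 596 ± 44.5 in cohort 1 drinkers, 493 ± 31.9 in cohort 2 controls and 506 ± 46.1 in cohort 2 drinkers (SD, n = 8, 8, 3 and 9). The sum ranged from 472 to 520 and from 516 to 656 in the controls and drinkers of cohort 1, and from 457 to 517 and from 443 to 568 in those of cohort 2, so the ranges overlapped in both cohorts and the drinkers of cohort 1 were the high group.

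**Figure D2:**
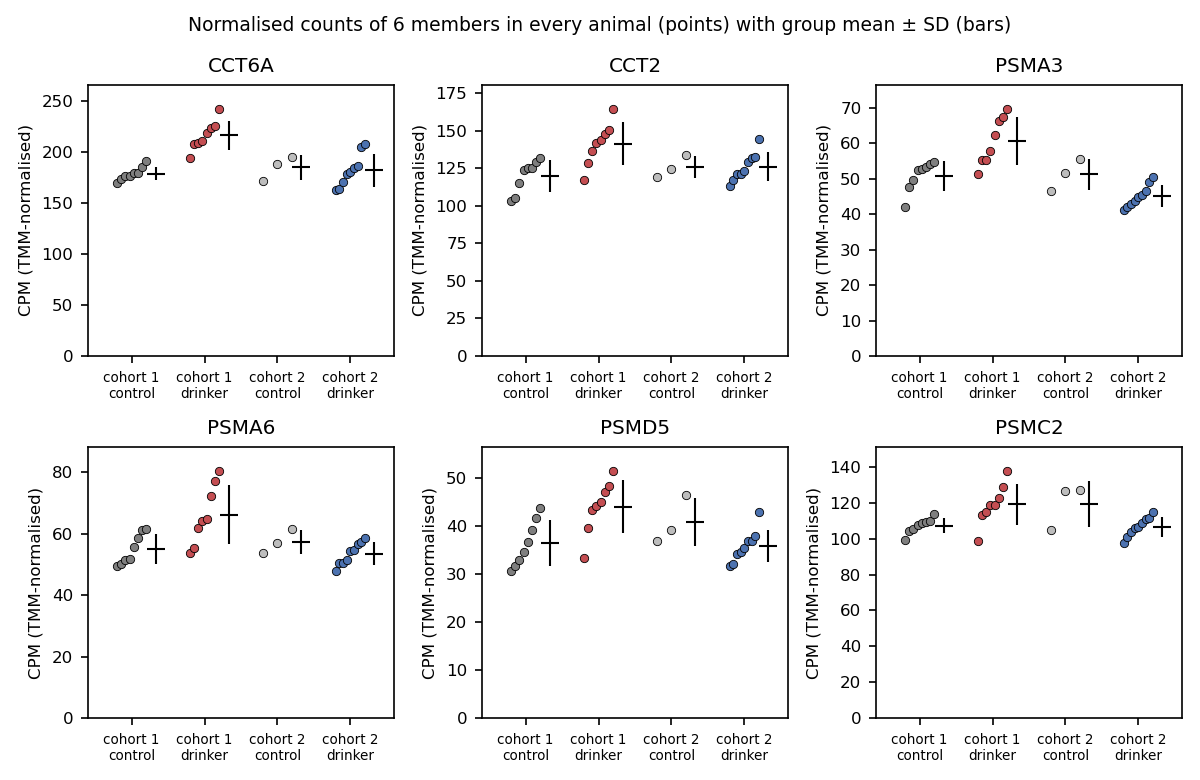
CPM of selected members in each of the 28 animals, with 1 point per animal, the group mean and its SD, for controls and drinkers of cohort 1 (8 and 8) and cohort 2 (3 and 9). The CCT6A points of cohort 1 drinkers (195 to 242 CPM) lie above those of cohort 1 controls (170.1 to 191 CPM), and the groups of the other genes overlap.

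In the alpha ring, 6 of 8 subunits had a higher estimate in cohort 1 drinkers and 7 of 8 a lower one in cohort 2 drinkers. PSMA3 (chromosome 7, 120337762 to 120365191, plus strand) ranged from 41.9 to 54.6 CPM (median 52.6) in cohort 1 controls and from 51.3 to 69.5 (median 60.1) in the drinkers. In cohort 2 the controls had 55.5, 51.4 and 46.6 CPM, and the drinkers, at 41.1 to 50.3 (median 44.8), all lay below the control median. The drinkers of PSMA3 were thus the higher group in cohort 1, 7 of 8 above the highest control, and the lower one in cohort 2, with log2 fold changes of 0.26 (SE 0.069, adjusted p = 0.0685) and −0.18 (SE 0.091, adjusted p = 1).

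PSMA6 (chromosome 7, 97350783 to 97392321, plus strand) ranged from 49.6 to 61.6 CPM (median 53.8) in cohort 1 controls and from 53.8 to 80.3 (median 64.6) in drinkers, 6 of 8 above the highest control. Cohort 2 controls had 56.9, 61.6 and 53.9 CPM and the drinkers 48.1 to 58.5 (median 54.4). The PSMA6 log2 fold changes were 0.27 (SE 0.076, adjusted p = 0.0860) and −0.10 (SE 0.10, adjusted p = 1). PSMA7 (chromosome 10, 97279000 to 97286049, minus strand), printed above with the more distant of its 2 upstream matches, had more overlap, at 93.8 to 134 CPM in cohort 1 controls and 109.7 to 148 in the drinkers. Its log2 fold change was 0.15 (SE 0.071, adjusted p = 0.307) in cohort 1 and −0.12 (SE 0.094) in cohort 2. PSMA2, at a median of 13.2 CPM in both groups of cohort 1, and PSMA5 had estimates of 0.27 and −0.02 in cohort 1 and of −0.06 and −0.05 in cohort 2, none of them past the test. PSMA8, an alpha subunit of the testis, was listed at 0 in 16 animals and did not exceed 1.96 CPM.

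The 7 constitutive beta subunits differed little between drinkers and controls of a cohort. Their median log2 fold change was 0.080 in cohort 1, with 6 of 7 higher, and −0.075 in cohort 2, with 6 of 7 lower, and no subunit reached even an unadjusted p under 0.05 in either cohort. PSMB5, the chymotrypsin-like subunit (chromosome 7, 85061812 to 85071287, minus strand), ranged from 102 to 167 CPM (median 139) in cohort 1 controls and from 116 to 180.0 (median 137) in drinkers. Its cohort 2 controls had 139, 162 and 114 CPM and the drinkers 105 to 147 (median 122). The PSMB5 groups overlapped in both cohorts, with log2 fold changes of 0.05 (SE 0.11) and −0.16 (SE 0.15).

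PSMB6, the caspase-like subunit (chromosome 16, 4628201 to 4630550, plus strand), ranged from 89.1 to 133 CPM (median 112) in cohort 1 controls and from 93.5 to 133 (median 111) in drinkers. In cohort 2, control animals had 112, 122 and 101 CPM and the drinkers 90.9 to 139 (median 105). Here too the groups overlapped, with −0.03 (SE 0.086) and −0.06 (SE 0.11) on the log2 scale. PSMB7, the trypsin-like subunit (chromosome 15, 16266425 to 16329033, plus strand), ranged from 72.8 to 125 CPM (median 103) and from 96.6 to 145 (median 112) in the controls and drinkers of cohort 1. Its cohort 2 controls had 93.7, 123 and 82.9 CPM and the drinkers 77.7 to 109 (median 97.7). The log2 fold changes of PSMB7 were 0.18 (SE 0.10, adjusted p = 0.488) and −0.08 (SE 0.14, adjusted p = 1), within overlapping groups.

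The inducible counterparts of these 3 catalytic subunits were scarce. PSMB8, which takes the place of PSMB5 (chromosome 4, 136681298 to 136685276, plus strand), ranged from 0.896 to 6.94 CPM over the 16 animals of cohort 1 and from 1.36 to 5.23 CPM over the 12 of cohort 2. PSMB9, which takes the place of PSMB6 (chromosome 4, 136666685 to 136673727, minus strand), had group medians between 5.62 and 6.83 CPM. PSMB10, which takes the place of PSMB7 (chromosome 20, 55152949 to 55155318, minus strand), had group medians between 18.3 and 22.4 CPM. All 3 had overlapping groups in both cohorts, with log2 fold changes of 0.09 (SE 0.39), −0.20 (SE 0.21) and 0.09 (SE 0.17) in cohort 1 and of −0.09 (SE 0.51), 0.10 (SE 0.29) and −0.28 (SE 0.22) in cohort 2. With these standard errors, differences of the size seen in the core subunits were not detectable. Leaving out 1 animal moved the PSMB9 estimate to between −0.36 and −0.08 in cohort 1 and between 0.02 and 0.22 in cohort 2.

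Per kilobase of RefSeq transcript, the constitutive subunit exceeded its inducible counterpart in every animal. The PSMB5 level was 28.0 to 165 times that of PSMB8 (median 67.9), the PSMB6 level 10.6 to 42.5 times that of PSMB9 (median 21.5), and the PSMB7 level 4.39 to 8.57 times that of PSMB10 (median 5.80). The order of the 3 pairs was thus the same in the medians, with the PSMB10 level nearest to its partner. The median ratio of PSMB7 to PSMB10 was 5.77 and 6.18 in the controls and drinkers of cohort 1 and 4.83 and 5.67 in those of cohort 2. The lengths are those of RefSeq transcripts and may differ from the Ensembl transcripts counted, which scales a pair's ratio by the same factor in every animal.

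**Figure D3:**
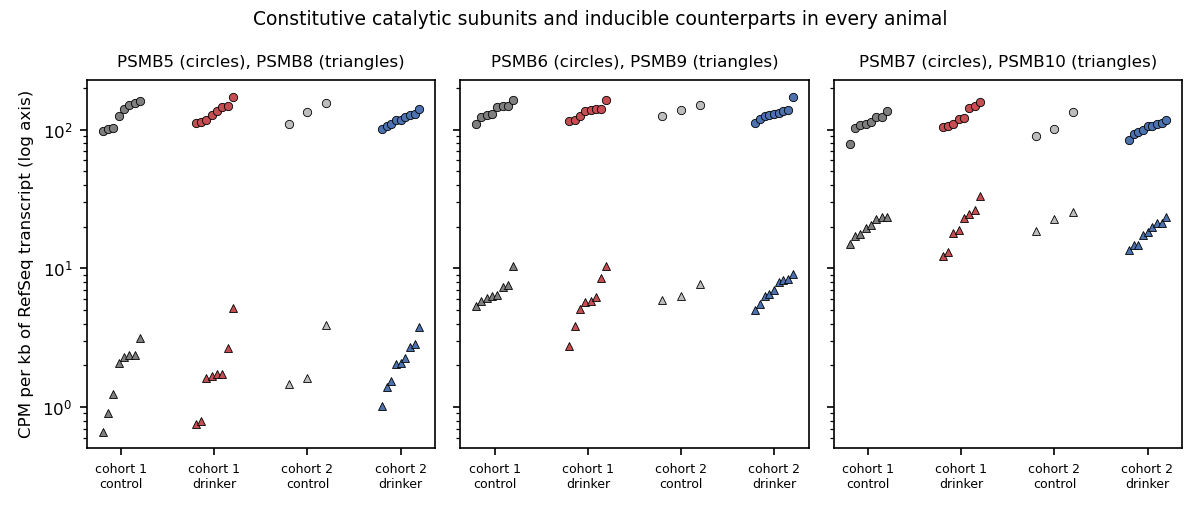
CPM per kilobase of RefSeq transcript, on a log axis, for PSMB5 and PSMB8, PSMB6 and PSMB9, and PSMB7 and PSMB10 in the 4 groups. Circles are the constitutive catalytic subunit and triangles its inducible counterpart, with 1 of each per animal. All circles of a pair lie above its triangles, and the groups overlap in each pair. The median ratios over the 28 animals, not drawn, were 67.9, 21.5 and 5.80.

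The ATPases of the base had a higher estimate in cohort 1 drinkers for 5 of 5 subunits, 2 at an unadjusted p under 0.05. Of all transcripts, 48.9% and 6.55% were higher in these ways. In cohort 2 drinkers the estimate was lower for 5 of 5, 1 at such a p, as for 48% and 0.995% of all transcripts. PSMC1 (chromosome 7, 152395820 to 152411143, plus strand) ranged from 104 to 141 CPM (median 118) in cohort 1 controls and from 119 to 158 (median 139) in drinkers. Cohort 2 controls had 138, 132 and 129 CPM and the drinkers 86.1 to 133 (median 119), 1 of 9 above the control median. PSMC1 was the higher in drinkers of cohort 1 (log2 0.21, SE 0.080, adjusted p = 0.169) and the lower in drinkers of cohort 2 (−0.18, SE 0.11, adjusted p = 1), neither past the adjusted test. With the neuron marker score as a covariate these estimates were 0.09 and −0.05.

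PSMC2 (chromosome 3, 129663762 to 129685462, plus strand) ranged from 99.4 to 114 CPM (median 108) in cohort 1 controls and from 98.5 to 137 (median 119) in the drinkers. Its cohort 2 controls had 126, 127 and 105 CPM and the drinkers 97.4 to 115 (median 106). Of the cohort 1 drinkers, 6 of 8 exceeded every control, and of the cohort 2 drinkers none exceeded the control median, with log2 fold changes of 0.15 (SE 0.056, adjusted p = 0.172) and −0.16 (SE 0.074, adjusted p = 1). PSMC4 (chromosome 19, 39221723 to 39231265, plus strand) ranged from 141 to 186 and from 144 to 199 CPM in the controls and drinkers of cohort 1. Cohort 2 controls had 164, 199 and 157 CPM and the drinkers 146 to 164. Its log2 fold changes were 0.11 (SE 0.068) and −0.18 (SE 0.090). The cohort 1 estimate of PSMC4 was 0.055 with the neuron covariate, and that of cohort 2 was −0.07 without control 2. The estimates of PSMC3 (0.01 and −0.04) and PSMC5 (0.01 and −0.01) lay near 0.

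The other base subunits and the assembly chaperones counted with them gave 4 higher and 2 lower estimates in cohort 1 and 6 of 6 lower in cohort 2. PSMD1, a large scaffold of the base (chromosome 12, 118477422 to 118600390, plus strand), ranged from 173 to 204 CPM (median 189) in cohort 1 controls and from 187 to 225 (median 198) in drinkers. Its cohort 2 controls had 182, 213 and 204 CPM and the drinkers 174 to 193 (median 186), none above the control median. The PSMD1 log2 fold changes were 0.10 (SE 0.049, adjusted p = 0.333) and −0.11 (SE 0.065, adjusted p = 1), and with the GC correction the cohort 1 estimate was 0.0093. In cohort 2 the PSMD1 estimate was −0.18 without control 1 and −0.07 without control 2. PSMD5, a chaperone of base assembly (chromosome 15, 21868697 to 21897024, plus strand), ranged from 30.6 to 43.7 CPM (median 35.5) in cohort 1 controls and from 33.4 to 51.3 (median 44.6) in drinkers, 5 of 8 above the highest control. Its cohort 2 controls had 39.2, 46.5 and 36.8 CPM and the drinkers 31.7 to 42.9 (median 35.4). PSMD5 thus stood at 0.27 (SE 0.089, adjusted p = 0.121) and −0.19 (SE 0.12, adjusted p = 1) on the log2 scale.

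In the lid, estimates were split between 5 higher and 3 lower in cohort 1 and between 2 higher and 6 lower in cohort 2. PSMD12 (chromosome 16, 63718069 to 63744431, minus strand) varied widely within groups, at 28.8 to 65.3 CPM (median 41.6) in cohort 1 controls and 29.7 to 77.3 (median 65.3) in drinkers. The controls of cohort 2 had 57.1, 45.9 and 48.0 CPM and cohort 2 drinkers 33.5 to 60.7 (median 46.0). Its groups overlapped in both cohorts, with log2 fold changes of 0.47 (SE 0.17, adjusted p = 0.150) and −0.11 (SE 0.22, adjusted p = 1). PSMD6 (chromosome 2, 120151951 to 120164755, minus strand) ranged from 32.0 to 49.3 and from 29.4 to 61.7 CPM in the controls and drinkers of cohort 1. The controls of cohort 2 had 58.9, 44.2 and 36.4 CPM and the drinkers 28.9 to 49.6 (median 34.0). Its estimate of −0.42 in cohort 2 (SE 0.17, unadjusted p = 0.0240, adjusted p = 1) was set against 0.08 (SE 0.13) in cohort 1. With 1 animal left out it lay between −0.56 and −0.21, the latter without control 1.

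PSMD2 of the base and the lid subunits PSMD8 and PSMD11 had lower estimates in the drinkers of both cohorts, with PSMD2 at −0.27 and −0.07 and PSMD8 at −0.09 and −0.06 on the log2 scale. PSMD11 had medians of 67.7 and 62.1 CPM in the controls and drinkers of cohort 1 and of 65.5 and 63.3 in those of cohort 2, with −0.11 (SE 0.058) and −0.08 (SE 0.076) on the log2 scale. Across both cohorts, with cohort as a covariate, its estimate was −0.10 (SE 0.046, unadjusted p = 0.0349, adjusted p = 0.664). PSMD14, the deubiquitinase of the lid, was scarce, with group medians of 7.08 to 9.35 CPM and log2 fold changes of 0.42 (SE 0.30) and 0.38 (SE 0.41). PSMD7, its partner, had 0.14 (SE 0.28) in cohort 1 at medians of 5.47 and 6.73 CPM in controls and drinkers. In cohort 2 it had −0.44 (SE 0.37) at medians of 6.23 and 4.53 CPM. None of these passed the adjusted test.

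Of the 4 activators, 2 were higher and 2 lower in cohort 1 and 1 higher and 3 lower in cohort 2. PSME3, the nuclear PA28 gamma, had medians of 8.45 and 9.78 CPM in the controls and drinkers of cohort 1 (log2 0.40, SE 0.22, adjusted p = 0.444). PSME4, the PA200 activator, had 41.3 and 44.1 (0.11, SE 0.11), and PSME2, the interferon-induced PA28 beta, had 11.7 and 10.5 (−0.17). In cohort 2 the log2 fold changes were −0.04 (SE 0.29) for PSME3, −0.09 (SE 0.14) for PSME4 and 0.14 (SE 0.18) for PSME2. PSME1, the PA28 alpha partner of PSME2, was listed at 0 in 21 animals. Summed over the 41 proteasome members, the level was 2701 ± 241 CPM in cohort 1 controls, 2859 ± 256 in cohort 1 drinkers, 2771 ± 273 in cohort 2 controls and 2588 ± 141 in cohort 2 drinkers (SD, n = 8, 8, 3 and 9).

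Seen per subcomplex, the medians of the core and of the regulator were above 0 in cohort 1 and below 0 in cohort 2, and those of the activators were below 0 in both. The median log2 fold changes in cohort 1 and cohort 2 were 0.26 and −0.11 in the alpha ring, 0.080 and −0.075 in the constitutive beta ring, 0.086 and −0.086 in the inducible beta subunits, 0.11 and −0.16 in the ATPases, 0.069 and −0.088 in the rest of the base, 0.041 and −0.085 in the lid, −0.031 and −0.064 in the activators, and 0.25 and 0.00 in CCT. Over the 41 proteasome members, 30 were higher in cohort 1 and 35 were lower in cohort 2.

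Whether drinkers and controls differed by another amount in cohort 2 than in cohort 1 was tested as the cohort 2 log2 fold change minus that of cohort 1. By edgeR 2 of 13769 transcripts (0.0145%) and 0 of 49 members passed the adjusted threshold. At an unadjusted p under 0.05 there were 1325 transcripts (9.62%) and 12 members (24.5%), all 12 with the lower value in cohort 2, as for 4.69% of transcripts. The estimate was negative for 39 of 49 members (79.6%), against 46.3% of all transcripts, with a median of −0.21 against 0.043. PSMA3 had the lowest p (difference −0.44, SE 0.11, adjusted p = 0.198), followed by PSMC2 (−0.31, SE 0.093, adjusted p = 0.279) and CCT6A (−0.30, SE 0.090, adjusted p = 0.279). With the GC correction the difference was −0.25 for PSMA3 and −0.17 for CCT6A. DESeq2 called 129 transcripts (0.942%) in this test, among them CCT6A, PSMA3, PSMC2 and PSMD5.

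Between the controls of the 2 cohorts, edgeR called 0 transcripts (0%) and 0 members at the adjusted threshold, and 463 transcripts (3.36%) had an unadjusted p under 0.05, none of them a member. Between the drinkers of the 2 cohorts some members differed. By edgeR, 263 of 13769 transcripts (1.91%) and 4 of 49 members (8.16%) differed between the drinkers of cohort 2 and those of cohort 1, all 4 lower in cohort 2, as were 0.777% of transcripts. At an unadjusted p under 0.05 the counts were 2154 (15.6%) and 18 members (36.7%). PSMA3 was lower by a log2 difference of −0.43 (adjusted p = 0.00486), PSMA6 by −0.31 (adjusted p = 0.0301), PSMA7 by −0.26 (adjusted p = 0.0465) and CCT6A by −0.25 (adjusted p = 0.0190). In the same comparison 9 of 11 neuron markers were lower in cohort 2, 6 at an unadjusted p under 0.05 and 3 at the adjusted threshold, with a median log2 difference of −0.61. Their part in the members' difference was not tested beyond the fit with the neuron score below. The comparison uses the same drinkers as the comparisons within cohorts. The number of members called was 2 to 7 when 1 animal was left out, 2 with the GC correction and 1 with the neuron score as a covariate, while all transcripts called numbered 105 to 340, 74 (0.558%) and 25 (0.182%) in these fits.

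With both cohorts in 1 estimate and cohort as a covariate, edgeR called 0 transcripts (0%) and 0 members, with 972 transcripts (7.06%) and 4 members at an unadjusted p under 0.05, 3 members higher (2.91% of transcripts) and 1 lower (4.15%). CCT6A had 0.17 (SE 0.051, adjusted p = 0.419), CCT5 0.23 (SE 0.080, adjusted p = 0.464) and CCT2 0.15 (SE 0.056, adjusted p = 0.518). The other was PSMD11, given above. The 3 chaperonin subunits of this group were the higher in drinkers, and the lid subunit was the lower.

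The 11 members with an unadjusted p under 0.05 in cohort 1 had a median GC of 44.1% in their RefSeq transcripts (39.9% to 53.0%), against 51.3% in the other 38 members (36.8% to 60.5%) and 50.3% in 13271 tested transcripts. With GC content corrected for in each library, 6 members (12.2%) had an unadjusted p under 0.05 in cohort 1, against 10.4% of all transcripts, and none passed the adjusted threshold. With the neuron score as a covariate 7 members (14.3%) did so, against 12.2% of all transcripts, and again none passed the adjusted threshold. Both shares lay closer to those of all transcripts than the 22.4% against 14.7% given above. The direction of the estimates changed less, with 38 of 49 members higher in cohort 1 and a median of 0.11 with the GC correction, and 31 higher and a median of 0.072 with the neuron covariate. For the difference between the cohorts, 5 members were counted with the GC correction, against 7.44% of transcripts, and 4 with the neuron covariate, against 5.77%. The GC correction changed the cohort 1 estimate of PSMA3 to 0.12, of CCT2 to 0.13, of PSMA6 to 0.16, of PSMC2 to 0.09 and of CCT5 to 0.17, and raised that of PSMB10 from 0.09 to 0.23, of PSMB8 from 0.09 to 0.14 and of PSMC4 from 0.11 to 0.16. The neuron covariate changed that of PSMD5 to 0.18 and of PSMD12 to 0.27. The part of GC content or of neuron content in the values was not tested beyond these fits.

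Of the 49 members, 9 were listed at 0 in at least 1 animal, although cells need nearly all of these subunits. CCT3 was at 0 in 23 animals, PSME1 in 21, PSMA8 in 16, CCT7 and PSMA1 in 12 each, PSMA4 in 10, PSMD13 in 4 and CCT8 and PSMD10 in 3 each. A 0 means only that the listed transcript was assigned no counts, so no fold change is given for these members. PSMA1 was at 0 in 6 of 8 controls and 5 of 8 drinkers of cohort 1 but in 0 of 3 and 1 of 9 animals of cohort 2, and reached 35.5 CPM. PSMA4 had the same split, at 0 in 4, 4, 0 and 2 animals. PSMD13 was at 0 in 1 control and 3 drinkers of cohort 1 and in none of cohort 2. CCT7 was at 0 in 4 of 8 controls and 2 of 8 drinkers of cohort 1, and its highest values there were 3.80 and 21.3 CPM.

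**Figure D4:**
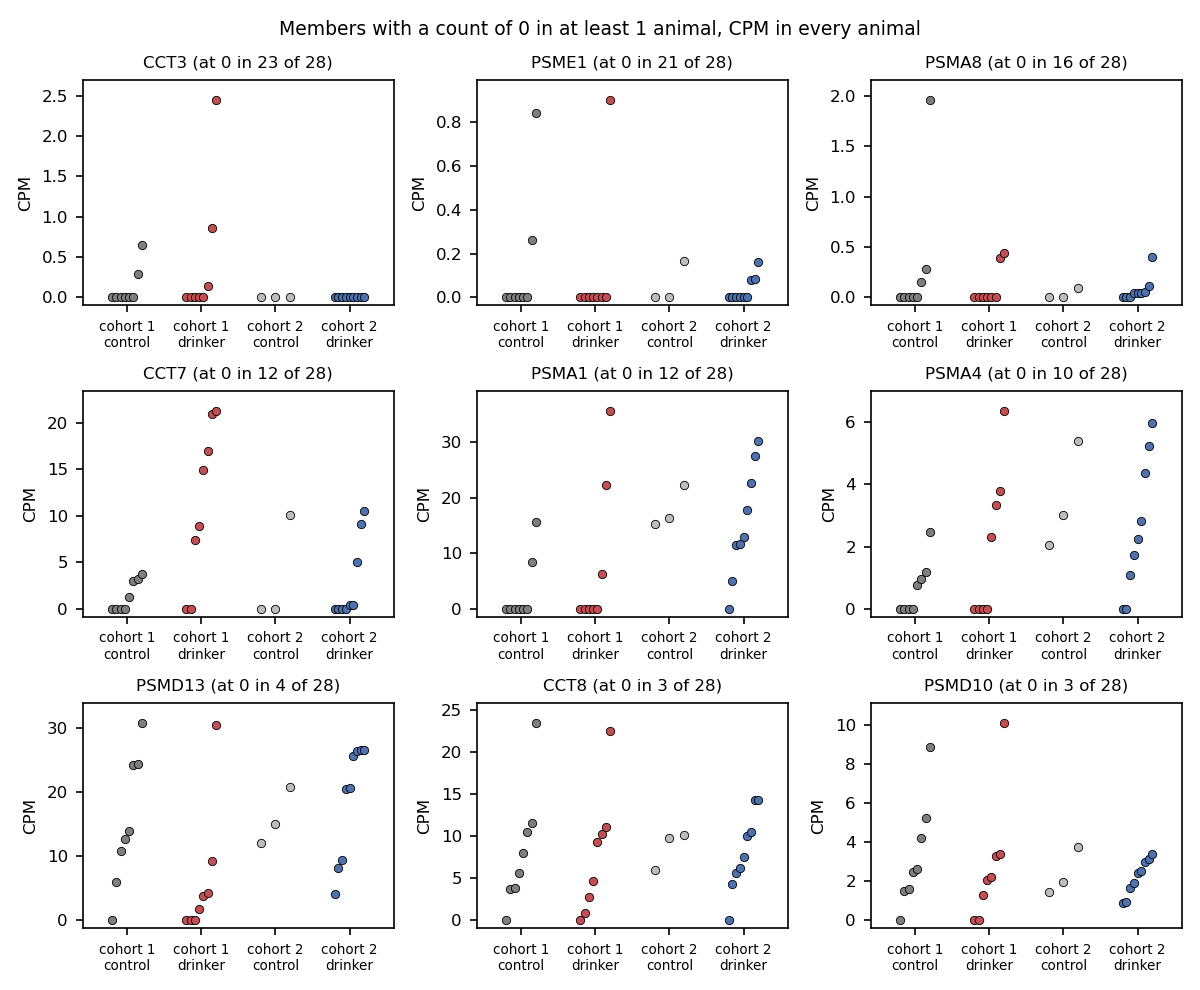
CPM of each of the 9 members listed at 0 counts in some animals, with 1 point per animal. Points are split by group (cohort 1 controls and drinkers, 8 each, cohort 2 controls, 3, and cohort 2 drinkers, 9). CCT3 is at 0 in 23 of 28 animals, and PSMA1 and PSMA4 are at 0 mostly in cohort 1.

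The beta ring subunits varied together from animal to animal. After removal of the group means, over the 28 animals, the 21 pairs among the 7 constitutive beta subunits had a median Pearson r of 0.766 (0.511 to 0.877) and a median Spearman rho of 0.789, and r was 0.745 in the animals of cohort 1 alone. The ATPases had a median r of 0.456, the alpha ring 0.345 and CCT 0.272, while the lid had −0.035. Over all 666 pairs of the 37 members with a mean of at least 10 CPM the median was 0.239, and between proteasome and CCT subunits it was 0.152. The closest pairs were PSMB5 with PSMD4 (r = 0.927), a ubiquitin receptor of the base, and PSMB7 with PSMD4 (r = 0.909). These correlations are a description, since the genes share libraries, depth and base composition. Of the subcomplexes listed here, the beta ring had the highest median.

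The partners of both machines were read from lists of their own. Of 24 tested assembly factors, accessory proteins and regulators of the proteasome, 17 were higher and 7 lower in cohort 1, 5 and 1 at an unadjusted p under 0.05 (6.55% and 8.14% of all transcripts) and none at the adjusted threshold, and 12 were higher and 12 lower in cohort 2. TXNL1, a thioredoxin-like protein bound to the regulator, had 0.49 (SE 0.14, adjusted p = 0.0889) and the shuttle factor UBQLN1 had 0.18 (adjusted p = 0.127) in cohort 1 and −0.18 (unadjusted p = 0.0259) in cohort 2. UBE3A, a ubiquitin ligase, was listed at 0 in 16 animals. NFE2L1, the gene of NRF1, had −0.06 and 0.03 on the log2 scale in the 2 cohorts.

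Of 13 tested genes of ubiquitin supply and the VCP unfoldase, 6 were higher and 7 lower in cohort 2. In cohort 1, 7 were higher and 6 lower, and 2 fell at the adjusted threshold, as did 80 of 13769 transcripts (0.581%). NPLOC4, a VCP cofactor, fell from a mean of 67.5 to 51.6 CPM (log2 −0.39, SE 0.087, adjusted p = 0.0314). The other was UBA1, the main ubiquitin-activating enzyme (adjusted p = 0.0495), which was listed at 0 in 15 animals including all drinkers of cohort 1, so no fold is given. FAF2 was listed at 0 in 21 animals. In cohort 2 no gene of any of these lists passed the adjusted test.

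Of 15 tested chaperonin partners, such as the prefoldin subunits that hand proteins to CCT, 11 were higher and 4 lower in cohort 1, 5 of the former at an unadjusted p under 0.05 (6.55% of all transcripts) and none at the adjusted threshold, and 6 were higher and 9 lower in cohort 2. TXNDC9, a regulator of CCT, had 0.33 (adjusted p = 0.0901), PFDN5 had 0.29 (adjusted p = 0.0981) and PFDN6 had 0.27 (adjusted p = 0.150). Of 17 tested substrates of CCT, 7 were higher and 10 lower in each cohort. In cohort 1, 2 of the latter had an unadjusted p under 0.05 (8.14% of all transcripts). The brain tubulin TUBB4A had −0.44 (SE 0.12, adjusted p = 0.0711), and GNB5 and GNB2 were listed at 0 in 15 and 21 animals.

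Of 22 tested subunits of the COP9 signalosome and eIF3, which are built like the lid, 16 were higher and 6 lower in cohort 1. In cohort 2, 10 were higher and 12 lower. COPS2 rose in cohort 1 from 93.7 to 111 CPM (log2 0.25, SE 0.059, adjusted p = 0.0430), where 0.378% of all transcripts were called higher. EIF3M had 0.32 (adjusted p = 0.0750) and GPS1 −0.20 (adjusted p = 0.160) in cohort 1. Of 16 tested other housekeeping genes and chaperones, 12 were higher and 4 lower in each cohort, with none called. The mitochondrial chaperonin genes HSPD1 and HSPE1 had 0.63 (SE 0.20, adjusted p = 0.116) and 0.56 (adjusted p = 0.169) in cohort 1, and HSPA4 was listed at 0 in 19 animals. Of 14 tested interferon and class I genes, which accompany the immunoproteasome, 9 were higher and 5 lower in cohort 1. There 1 each had an unadjusted p under 0.05 (6.55% and 8.14% of all transcripts). In cohort 2, 7 were higher and 7 lower, 1 of the latter at such a p (0.995% of all transcripts). PDIA3 had −1.53 in cohort 1 (SE 0.74, adjusted p = 0.329), and ERAP1 and CALR were listed at 0 in 25 and 23 animals.

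Markers of other cell types gave the following sums. The oligodendrocyte markers (12 of 13 tested) had 4 higher and 8 lower estimates in cohort 1, with sums of 13639 to 23413 CPM in controls and 13454 to 22727 in drinkers, and 9 higher and 3 lower in cohort 2, with 15913 to 18091 and 15221 to 21798. Astrocyte markers (8 of 10 tested, SLC1A2 at 0 in every animal) summed to 3742 to 5715 CPM and microglia markers (10 of 11) to 206 to 613 over the 28 animals. Endothelial markers summed to 84.4 to 229 CPM, and of 6 blood markers 1 was tested, ALAS2 being at 0 in every animal. Of 13 dopamine neuron markers, 2 were higher and 11 lower in cohort 1 (median log2 −0.29) and 4 higher and 9 lower in cohort 2 (−0.62), none at an unadjusted p under 0.05. They summed to 35.9 to 1854 and 41.3 to 1741 CPM in the controls and drinkers of cohort 1 and to 130 to 1696 and 67.9 to 1280 in those of cohort 2. The part of these cells in the members' values was not tested, apart from the fits with the oligodendrocyte or neuron score as a covariate.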

How the data were processed

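RNA from 1 VTA punch of each of 28 macaques was sequenced with the Nugen Universal Plus mRNA kit. Per the labels and the study's methods, the authors trimmed reads with Trim Galore 0.6.7, quantified them with Salmon 1.9.0 against Mmul_10 and listed DESeq2 1.36.0 among their tools. They deposited estimated counts without normalization, 1 column per animal and 1 Ensembl transcript per gene symbol. The 1 entry without a symbol held 1.16e-05 percent of the counts and was left out.

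Estimated counts were rounded. Transcripts reaching 5 counts in 3 or more animals were fitted with edgeR 4.0.16 (TMM, quasi-likelihood) in R 4.3.3, with a mean for each cohort and group, and p-values were adjusted over all 13769 transcripts. CPM is TMM-normalised, and a standard error is the absolute log2 fold change divided by the square root of F. Animals are separate, so the spread is between animals. DESeq2 1.42.0, limma-voom 3.58.1, other scalings, filters and covariates, and each animal left out were alternatives. The fits were tested on simulated counts. GC content, lengths and upstream sequence came from RefSeq Mmul_10. Controls and drinkers follow the labels, and cohorts follow the study's source data by animal number.

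The members and gene lists were chosen with earlier results of these data known, so their counts are descriptive. Named in full were the 12 members with the lowest p among the 13 with an unadjusted p under 0.05 in a cohort or in the difference between cohorts, the 6 catalytic subunits, and up to 3 genes per list with the lowest p in either cohort. PSMA7, NFE2L1 and the other members given by value were added by role after their values were seen.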

Additional observations from a re-analysis of the deposited data

Results flagged for a closer look

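In 5 of the 54 member groups tested (18 members with full values, groups of 8 or 9 animals), 1 animal lay far from the others by Dixon's criterion, which chance passes in about 5% of groups. Animals are numbered within cohort and group in ascending order of their animal numbers. For PSMD6 drinker 1 of cohort 1 had 61.7 CPM against 29.4 to 43.9 in the other drinkers, and drinker 7 of cohort 2 had 49.6 CPM against 28.9 to 35.7. For PSMB6 drinker 3 of cohort 2 had 139 CPM against 90.9 to 112. For PSMB8 drinker 4 of cohort 1 had 6.94 CPM against 1.01 to 3.57. For PSMB9 control 8 of cohort 1 had 10.1 CPM against 5.23 to 7.41.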

How the results depend on the processing

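In cohort 1 the members called numbered 1, and 0 with each cohort fitted alone, with the GC correction or with the neuron covariate, 6 by DESeq2 (CCT2, CCT6A, PSMA3, PSMA6, PSMC2 and PSMD5, of 429 transcripts or 3.13%), 2 with at least 10 counts required in every animal (CCT6A and PSMA3, of 40 members, with 192 of 7637 transcripts or 2.51%), and 1 to 2 with 1 animal left out (2 without drinker 1, 2 or 3 of cohort 1). The 132 transcripts called became 38 to 47 without drinker 5, 7 or 8 or control 2, 4, 5 or 8 of cohort 1, and 78 and 76 without drinkers 1 and 4 of cohort 2. At an unadjusted p under 0.05 the 11 became 6 (GC), 7 (neuron) and 9 to 13 (1 animal left out), while the share over all transcripts went from 14.7% to 10.4% (GC) and 12.2% (neuron). In cohort 2 the 2 became 3 by DESeq2, with each cohort fitted alone or with the mitochondrial share as a covariate, 1 by limma-voom, without mitochondrial transcripts, with the stricter filter or with the oligodendrocyte covariate, 0 with the neuron covariate, and 1 to 4 with 1 animal left out. The share over all transcripts there went from 2% to 2.12% (DESeq2), 3.97% (each cohort alone), 2.26% (mitochondrial share) and 2.44% (limma-voom). It was 1.98% without mitochondrial transcripts, 1.85% with the stricter filter, 1.98% with the oligodendrocyte covariate and 1.84% with the neuron covariate. For the difference between cohorts, DESeq2 called 4 in place of 0, and the 12 at an unadjusted p under 0.05 became 5 (GC), 4 (neuron) and 8 to 13, with 9.62%, 7.44% and 5.77% of all transcripts in the fit given above, with GC and with neuron. Between drinkers of the cohorts, the 4 (1.91% of all transcripts called) became 11 (DESeq2, 4.68%), 7 (stricter filter, 5.58%), 2 (GC, 0.558%), 7 (oligodendrocyte, 2.93%), 1 (neuron, 0.182%) and 2 to 7 (7 without drinker 3 of cohort 1, and 2 without drinker 7 or 8 of cohort 1 or drinker 2, 4 or 6 of cohort 2). The median over members ranged with 1 animal left out from 0.086 to 0.14 in cohort 1, from −0.13 (without its control 3) to −0.02 (without control 2 of cohort 2) in cohort 2, and from −0.24 to −0.11 (without control 2 of cohort 2) for the difference. The cause of these changes was not tested.

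Estimates near 0 changed sign, where a range is over the fits with 1 animal left out. In cohort 1 these were PSMD6 (−0.0022 GC, −0.0368 neuron, and −0.0256 without drinker 1), PSMB5 (−0.0300 neuron, −0.0098 to 0.1046), PSMB6 (0.0293 GC, −0.0691 to 0.0166), PSMB8 (−0.2724 to 0.2365) and PSMB10 (−0.0348 to 0.1745). In cohort 2 they were CCT6A (0.0103 GC, −0.0681 to 0.0179), CCT2 (−0.0013 limma-voom, −0.0091 neuron, −0.0304 to 0.0447), PSMD12 (0.1037 neuron), PSMB9 (−0.0202 neuron), PSMB6 (−0.1212 to 0.0063), PSMB7 (−0.1865 to 0.0994) and PSMB8 (−0.3305 to 0.5104). For the difference they were CCT5 (0.0554 GC), PSMB6 (0.0102 oligodendrocyte, 0.0107 neuron, −0.0954 to 0.0321) and PSMB8 (−0.4211 to 0.4132). In cohort 2, where 1 of 3 controls weighs most, other estimates also moved by over 1.5 times: without control 2, PSMA6 was −0.0517, PSMD5 −0.0902, PSMB5 −0.0311 and PSMB10 −0.1705, and without control 1, PSMA3 was −0.1221 and PSMD12 −0.0073. With the neuron covariate, PSMD5 was −0.0798 and PSMB5 −0.0588 in cohort 2 and PSMB9 −0.0664 in cohort 1, and with GC, PSMA6 was −0.0639 and PSMD12 −0.0653 in cohort 2. No paired analysis was possible because the labels do not say which control was yoked to which drinker, and the groups compared share no replicate numbers.

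With 3 controls, cohort 2 allows only coarse estimates, and members under about 10 CPM had standard errors of 0.2 or more on the log2 scale.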
